A study of Mus musculus with 4 samples.

Results

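Growth factors that act on myeloid, vascular and stromal cells were compared between the 2 natural killer (NK) cell subsets of the mouse liver. The 10 genes are Csf1, Csf2, Flt3l, Osm, Lif, Il16, Angpt1, Areg, Vegfa and Pdgfb, out of 21025 gene rows in each file. They were chosen by gene symbol from a list of such factors, with earlier results of the same contrast known, so their levels, differences and calls are given as a description, and the calls are not independent evidence. By symbol, 9 were found. For Flt3l, 1 row was found by its RefSeq accession alone, because the file names that row Rpl13a.

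RNA was sequenced from 4 libraries of sorted liver cells of C57BL/6 mice. TRAIL+ cells (2 libraries) were TCRb-, NK1.1+, NKp46+, TRAIL+ and CD49b-, and CD49b+ cells (2 libraries) were TCRb-, NK1.1+, NKp46+, TRAIL- and CD49b+. TRAIL is a death ligand of the TNF family and CD49b is an integrin chain. The labels do not say whether the libraries of a subset came from separate mice, so their spread may be technical. The series title names the transcription factor Nfil3 in NK cell development, and no Nfil3-deficient library was analysed here.

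Levels are in RPKM, which divides reads by both gene length and sequencing depth, and can thus be set side by side between genes. Reads were worked out from the steps of these values. The libraries rested on 3786497 to 4232967 reads. The gate genes followed the labels, with Tnfsf10 (TRAIL) at 208 and 189 RPKM in TRAIL+ cells, against 7.26 and 6.94 RPKM in CD49b+ cells, and Itga2 (CD49b) at 5.26 and 1.55 RPKM against 52.1 and 37.0 RPKM. The 4 gate genes had no member at 0. In replicate 1 of each subset, some genes of other liver cells stood higher than in replicate 2. The macrophage gene Lyz2 stood at 81.9 and 9.21 RPKM in TRAIL+ cells and at 122 and 8.87 RPKM in CD49b+ cells. The hepatocyte gene Alb stood at 12.7 and 1.92 RPKM and at 14.8 and 0.865 RPKM. Not all such genes did so, since the Kupffer cell gene Clec4f stood at 0.918 and 1.32 RPKM and at 0.196 and 0 RPKM.

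Colony-stimulating factors keep myeloid cells alive and drive their growth. Csf1 (M-CSF) acts on macrophages, Csf2 (GM-CSF) on granulocytes, monocytes and dendritic cells, and Flt3l on dendritic cell precursors. Osm and Lif belong to the IL-6 family and signal through the shared receptor chain gp130. Angpt1, Vegfa, Pdgfb and Areg act on endothelial cells, on pericytes and stellate cells, and on epithelium, and Il16 attracts cells that carry CD4. NK cells and type 1 innate lymphoid cells are known as sources of Csf2, which they share with T cells.

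The factors divided the subsets. Csf1 and Csf2 were higher in TRAIL+ cells, while Osm, Vegfa and Angpt1 were lower there. Il16, Pdgfb and the Flt3l row were abundant in every library, and Lif and Areg were close to absent. Of the 10 genes, 8 reached an RPKM of at least 1 in at least 2 libraries and entered the fit across 10047 genes (limma on log2(RPKM + 1)). Past an adjusted p threshold of 0.05 were 5 of these 8, with 2 higher and 3 lower in TRAIL+ cells, where 8.62% of all genes tested were called, 4.76% as higher and 3.86% as lower. The subsets did not overlap in 8 of the 8, against 46.8% of all genes tested. The genes were chosen with this contrast known, so nothing is read from these counts. Their median log2 fold change was -0.20, beside 0.00 over all genes tested. In bulk RNA, fewer cells that make a transcript and less transcript per cell cannot be told apart.

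**Figure D1:**
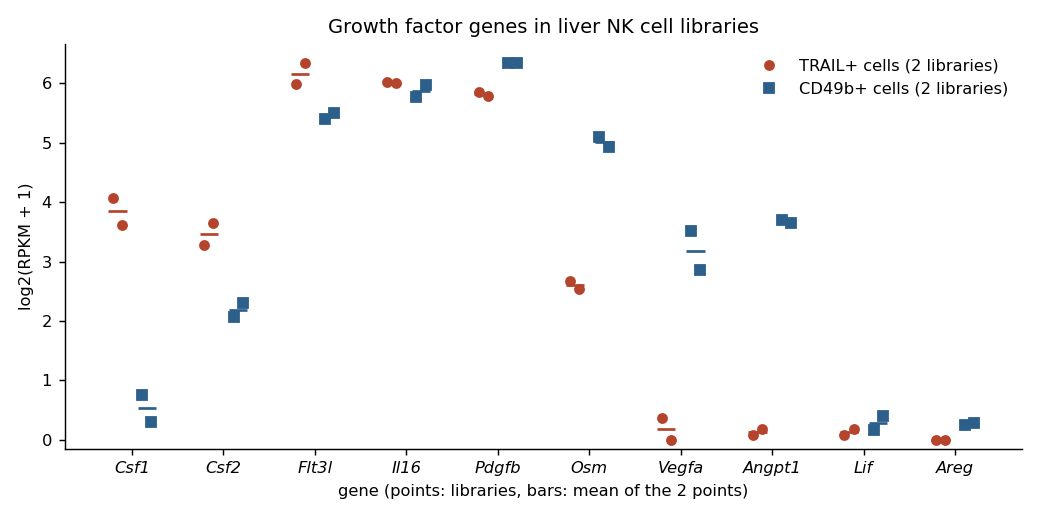
Levels of the 10 growth factor genes as log2(RPKM + 1), with 1 point for each library (TRAIL+ cells red, CD49b+ cells blue) and a bar at the mean of the 2 points. Csf1 and Csf2 stand higher in TRAIL+ cells, Osm, Vegfa and Angpt1 stand higher in CD49b+ cells, and Lif and Areg lie near 0 in all 4 libraries.

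Csf1, the growth factor of macrophages, stood at 15.9 and 11.3 RPKM in TRAIL+ cells (287 and 190 reads), against 0.693 and 0.229 RPKM in CD49b+ cells (13 and 4 reads). Each TRAIL+ library was far above each CD49b+ library, and replicate 1 was the higher library in each subset. The means were 13.6 ± 3.24 RPKM in TRAIL+ cells and 0.461 ± 0.328 RPKM in CD49b+ cells (SD, n = 2 each), a ratio of 29.5. The log2 fold change was 3.32 ± 0.28 (SE), and 0.946% of genes tested changed by more. The ratio rests on few CD49b+ reads, and was 59.3 without CD49b+ replicate 1 and 19.6 without CD49b+ replicate 2. Lyz2 and Alb also stood higher in replicate 1 of each subset, and their part in the Csf1 level was not tested. Between replicates 2 alone, where Lyz2 and Alb were low, Csf1 stood at 11.3 RPKM in the TRAIL+ library and 0.229 RPKM in the CD49b+ library. Other macrophage genes still differed there, with C1qa at 4.38 and 0 RPKM and Clec4f at 1.32 and 0 RPKM. Cd68 (3.13 and 5.77 RPKM), Cd14 (0 and 0.17 RPKM) and Ly6c2 (30.2 and 593 RPKM) went the other way. The part of these genes was not tested either.

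The Csf1 promoter is shown because Csf1 had the largest positive change of the 10 genes. The window runs from 250 bases before to 50 bases after the RefSeq start site (GRCm38.p6, chr3:107760420-107760719, minus strand), in lower case with matches to the motifs searched in capitals.
Csf1 promoter: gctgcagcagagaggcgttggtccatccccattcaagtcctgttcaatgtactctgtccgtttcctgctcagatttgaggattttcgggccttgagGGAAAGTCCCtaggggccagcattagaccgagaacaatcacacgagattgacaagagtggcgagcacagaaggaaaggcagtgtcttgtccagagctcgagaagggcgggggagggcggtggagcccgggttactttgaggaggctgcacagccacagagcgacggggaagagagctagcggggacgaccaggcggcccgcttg
The capitals mark 1 match to the NF-kB motif (GGG, then any pair of bases, then TTTCC), read on the opposite strand and starting at position -154 from the start site. The motif, on either strand, occurs in 1.63% of 32851 promoter windows of the same length. The other motifs searched on both strands were the TATA box with TATAAA, the AP-1 site with TGANTCA, the STAT site with TTCNNNGAA, the T-box core with GGTGTGA and the hypoxia response core with ACGTG. They had no match in this window and occur in 13.6%, 7.81%, 8.30%, 3.98% and 19.6% of windows. Windows were found for 7 of the 10 genes, and not for Osm, Angpt1 and Pdgfb. Elsewhere, Areg held the TATA box and Lif the AP-1 site. For Vegfa, the window at chr17:46025114-46025413 held the hypoxia response core, and that at chr17:46032328-46032627 held no match. Il16 held the AP-1 site and the NF-kB motif in different windows. Csf2 and Flt3l held no match, and the RefSeq window of Csf2 starts at another site than the GENCODE transcript. A match describes the letters only.

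Csf2, which encodes GM-CSF, stood at 8.76 and 11.5 RPKM in TRAIL+ cells (37 and 45 reads), against 3.19 and 3.92 RPKM in CD49b+ cells (14 and 16 reads). Csf2 was present in all 4 libraries, at a higher level in CD49b+ cells than Csf1, and the subsets did not overlap. The means were 10.1 ± 1.91 RPKM in TRAIL+ cells and 3.56 ± 0.519 RPKM in CD49b+ cells (SD, n = 2 each), a ratio of 2.84. The log2 fold change was 1.28 ± 0.23 (SE), which 6.78% of genes tested exceeded, and it was not past the threshold without either CD49b+ library. Il3, the neighbour of Csf2 on chromosome 11 and another growth factor of myeloid cells, had 0 reads in all 4 libraries.

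Csf2 is the textbook case of an mRNA with an AU-rich element in its 3' UTR, a stretch of overlapping ATTTA pentamers that proteins such as Zfp36 bind to shorten the life of the message. The pentamers were counted in the longest 3' UTR annotated for each gene's accessions (GENCODE M21). Csf2 held 9 in 317 bases, or 28.4 per kilobase, and 0.0513% of 9750 genes tested held as many for their length, with a median of 1.28 per kilobase. Areg followed at 15.8 per kilobase, then Osm at 5.90 and Vegfa at 4.83. Angpt1, Lif, Pdgfb and Csf1 held 1.89 to 3.12 per kilobase, and Il16 and Flt3l held 0. The longer form TTATTTATT was present in 4 of the 10 genes (Csf2, Areg, Vegfa and Lif), and in 7.28% of genes tested. The richest 30 bases are shown for 4 of the genes to compare their density, with whole pentamers in capitals.
Csf2: aaatATTTATTTATTTATTTATTTAttttt
Areg: aATTTATTTAatATTTAagtgttATTTAtt
Osm: ttttatATTTAtaaggcctATTTAtaatgt
Vegfa: ttaatATTTAatttcaactATTTAtgagat
Csf2 had 5 pentamers in this window and Areg 4, against 2 each in Osm and Vegfa. Of these 4 genes, Csf2 was higher, and Osm and Vegfa were lower, in TRAIL+ cells, and Areg had too few reads to compare. The part of mRNA decay in these differences was not tested.

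**Figure D2:**
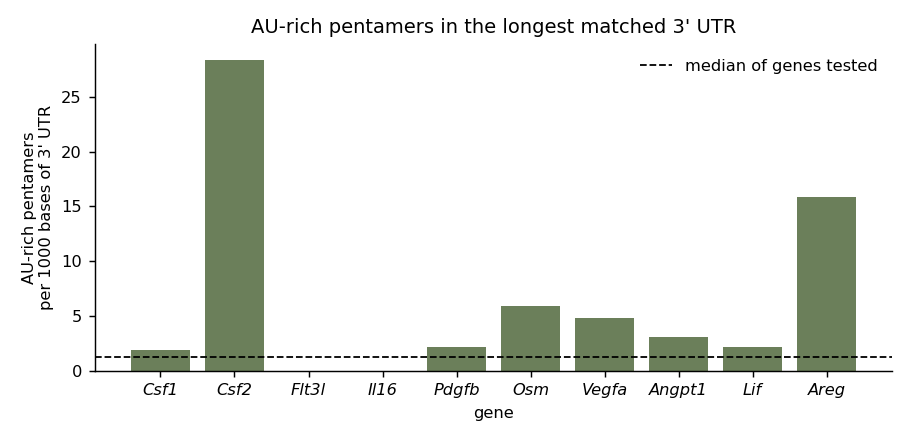
AU-rich pentamers per kilobase of the longest matched 3' UTR of each gene (bars), with the median of the genes tested as a dashed line at 1.28. Csf2 stands at 28.4 and Areg at 15.8, and Flt3l and Il16 are at 0.

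The row with the Flt3l accession, the growth factor of dendritic cell precursors, stood at 62.3 and 80.2 RPKM in TRAIL+ cells, against 41.4 and 44.1 RPKM in CD49b+ cells. The TRAIL+ libraries were the higher pair and did not overlap with the other. The means were 71.2 ± 12.6 RPKM in TRAIL+ cells and 42.8 ± 1.90 RPKM in CD49b+ cells (SD, n = 2 each), and the log2 fold change of 0.71 ± 0.18 (SE, 95% interval 0.25 to 1.18) was not past the threshold. Without TRAIL+ replicate 1 the log2 fold change was 0.89, and with the replicate number as a block it was past the threshold. The length worked out for this row was 1084 bases, beside 1075 bases for the annotated Flt3l transcript. A separate row with the accessions of Rpl13a, the ribosomal protein gene next to Flt3l on chromosome 7, stood at 185 and 339 RPKM in TRAIL+ cells, against 192 and 225 RPKM in CD49b+ cells. In both rows TRAIL+ replicate 2 was the highest library, and whether the rows share reads was not tested.

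Osm and Lif, IL-6 family genes that lie next to each other on chromosome 11, differed in level and pattern. Osm, which encodes oncostatin M, stood at 5.41 and 4.84 RPKM in TRAIL+ cells (42 and 35 reads), against 33.4 and 29.6 RPKM in CD49b+ cells (270 and 222 reads). The libraries of each subset lay close together and the subsets were well apart. The means were 5.13 ± 0.397 RPKM in TRAIL+ cells and 31.5 ± 2.72 RPKM in CD49b+ cells (SD, n = 2 each), a ratio of 6.15, and the log2 fold change was -2.41 ± 0.18 (SE). In contrast, Lif had 1 and 2 reads in TRAIL+ cells and 2 and 5 reads in CD49b+ cells, and the subsets overlapped. The ratio of reads was 2.25 higher in CD49b+ cells, with an exact 95% counting interval of 0.513 to 13.5, so no difference in Lif was detectable at this depth.

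Il16 and Pdgfb were among the more abundant transcripts of every library. Il16, whose product attracts cells with CD4, stood at 63.8 and 63.3 RPKM in TRAIL+ cells, against 53.4 and 61.8 RPKM in CD49b+ cells. The log2 fold change was 0.14 ± 0.16 (SE, 95% interval -0.26 to 0.54), the smallest of the 8 genes in the fit. Between 92.8% and 94.1% of rows stood at or below Il16 in a library. Pdgfb, a growth factor of pericytes and stellate cells, stood at 56.6 and 54.2 RPKM in TRAIL+ cells, against 80.3 and 80.4 RPKM in CD49b+ cells. The libraries of each subset were close, and the difference was modest, at a ratio of 1.45. The log2 fold change of -0.53 ± 0.15 (SE, 95% interval -0.90 to -0.16) was past the threshold only with the replicate number as a block.

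Angpt1 and Vegfa, growth factors of blood vessels, were transcripts of CD49b+ cells in these libraries. Angpt1, the activating ligand of the endothelial receptor Tie2, had 1 and 2 reads in TRAIL+ cells (0.0601 and 0.129 RPKM), against 207 and 186 reads in CD49b+ cells (12.0 and 11.6 RPKM). The ratio of reads was 126 higher in CD49b+ cells, with an exact 95% counting interval of 42.8 to 614. The log2 fold change was -3.55 ± 0.21 (SE), the largest in size of the 10 genes, and 0.816% of genes tested changed by more. Without TRAIL+ replicate 2 the ratio of means was 196, and without TRAIL+ replicate 1 it was 91.1, beside 124 with all libraries.

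Vegfa, the main growth factor of endothelial cells, had 5 and 0 reads in TRAIL+ cells (0.294 and 0 RPKM), against 184 and 103 reads in CD49b+ cells (10.4 and 6.26 RPKM). All but 5 of its reads came from CD49b+ cells, whose libraries differed more from each other than for Angpt1. Replicate 1 was the higher library in each subset, as for Lyz2 and Alb, and their part in the Vegfa level was not tested. The means were 0.147 ± 0.208 RPKM in TRAIL+ cells and 8.33 ± 2.92 RPKM in CD49b+ cells (SD, n = 2 each), and the log2 fold change was -3.00 ± 0.31 (SE). The ratio of reads was 55.2 higher in CD49b+ cells, with an exact 95% counting interval of 23.4 to 171. The ratio of means, 56.7, became 28.4 without TRAIL+ replicate 2. Without TRAIL+ replicate 1 the remaining TRAIL+ library had 0 reads.

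Areg, which encodes the EGF receptor ligand amphiregulin, had 0 reads in both TRAIL+ libraries and 1 read in each CD49b+ library (0.196 and 0.211 RPKM). Both subsets were below the level that 3 reads would give, 0.317 RPKM over the TRAIL+ libraries and 0.305 RPKM over the CD49b+ libraries, so no fold is given. The neighbours of Areg on chromosome 5, the EGF family genes Ereg and Epgn, had 0 reads in all 4 libraries, and Btc had 1 read in the CD49b+ libraries.

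**Figure D3:**
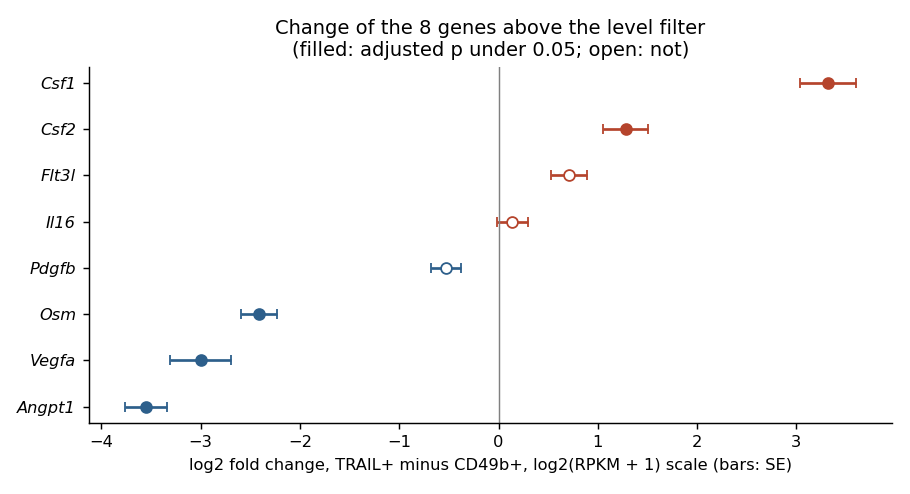
Log2 fold change of the 8 genes in the fit, TRAIL+ minus CD49b+, on the log2(RPKM + 1) scale, with bars for the SE and filled points for genes past an adjusted p of 0.05. The values run from 3.32 for Csf1 to -3.55 for Angpt1, with Flt3l, Il16 and Pdgfb nearest 0.

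By level, the order of the genes differed between the subsets. In TRAIL+ cells the Flt3l row (71.2 RPKM), Il16 (63.6) and Pdgfb (55.4) were followed by Csf1 (13.6), Csf2 (10.1) and Osm (5.13), and the remaining genes were under 0.15 RPKM. The Flt3l row and Il16, Csf1 and Csf2, Vegfa and Lif, and Lif and Angpt1 were neighbours whose libraries overlapped. In CD49b+ cells Pdgfb (80.3 RPKM) came first, then Il16 (57.6), the Flt3l row (42.8), Osm (31.5), Angpt1 (11.8), Vegfa (8.33) and Csf2 (3.56). Csf1, Lif and Areg averaged under 0.5 RPKM there. The libraries of Csf1 overlapped with those of Lif, and those of Lif with Areg, while Csf1 and Csf2 did not overlap.

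The genes most like each called factor were those at the smallest Euclidean distance on log2(RPKM + 1) over the 4 libraries, where distance covers level as well as difference. For Csf1 they were Cd101 (0.48), Sntb1 (0.51) and Tspan9 (0.55), and Cd101 stood at 13.7 and 12.7 RPKM in TRAIL+ cells against 0.288 and 0.155 RPKM in CD49b+ cells. For Csf2 they were Gm11110 (0.31), Ifit1 (0.33) and Cyth3 (0.34). For Osm they were Snx10 (0.45), Sbk1 (0.47) and Slc9a7 (0.52). The nearest to Angpt1 were Elovl7 (0.19), Wdr95 (0.26) and Cdh22 (0.37), and the last 2 of these had 0 RPKM in TRAIL+ cells. The nearest to Vegfa were Rgs16 (0.30), Mef2c (0.39) and Cmah (0.42).

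Lists of related genes were also chosen with earlier results of these data known, so their counts and calls are not independent evidence. Of 10 other hematopoietic growth factors, 6 had 0 reads in every library (Il3, Il5, Il34, Kitl, Epo and Il13), and 1, Il7, was tested. Il7 stood at 1.58 and 1.92 RPKM in TRAIL+ cells, against 0.286 and 0.308 RPKM in CD49b+ cells, and was not past the threshold (log2 fold change 1.08 ± 0.23, limma adjusted p = 0.0511). By voom on the recovered reads it was called. Of 8 other IL-6 family cytokines, only Clcf1 was tested, at 29.2 RPKM in TRAIL+ cells and 38.4 RPKM in CD49b+ cells, and it did not pass (limma adjusted p = 0.405). Il34, the other ligand of the Csf1 receptor, thus gave no read in the libraries that held Csf1.

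Among 10 other EGF family ligands, 2 were tested and 1 was called, where 8.62% of all genes tested were called. Hbegf, which encodes a heparin-binding ligand of the EGF receptor, rose in TRAIL+ cells to 7.01 and 8.87 RPKM, against 2.28 and 1.60 RPKM in CD49b+ cells (log2 fold change 1.61 ± 0.24, SE, limma adjusted p = 0.0155). The call was lost without CD49b+ replicate 2 (limma adjusted p = 0.106). Of 15 other VEGF, PDGF and angiopoietin ligands, 3 were tested and 1 fell, beside the same 8.62% of all genes tested called. This was Vegfc, a growth factor of lymphatic vessels, at 2.08 and 1.54 RPKM in TRAIL+ cells, against 16.3 and 15.1 RPKM in CD49b+ cells (log2 fold change -2.57 ± 0.21, SE, limma adjusted p = 0.00248). As for Vegfa and Angpt1, its subsets did not overlap, which held for 46.8% of all genes tested.

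Of 27 other tissue growth factors, 12 had 0 reads in every library and 8 were tested, with 2 higher, 1 lower and 5 not past the threshold. Among all genes tested the called share was 8.62%. Gdf11, a secreted factor of the TGF-beta superfamily, stood at 42.8 and 19.1 RPKM in TRAIL+ cells, against 4.82 and 4.20 RPKM in CD49b+ cells (log2 fold change 2.43 ± 0.38, SE, limma adjusted p = 0.0178). Bmp7, a bone morphogenetic protein, rose to 9.83 and 10.4 RPKM in TRAIL+ cells, against 1.68 and 1.29 RPKM in CD49b+ cells (limma adjusted p = 0.00388). Fgf13, a member of the FGF family that stays inside the cell, fell to 0.983 and 1.27 RPKM in TRAIL+ cells, against 6.24 and 7.23 RPKM in CD49b+ cells (limma adjusted p = 0.00737). The 8 tested had a median log2 fold change of 0.45.

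**Figure D4:**
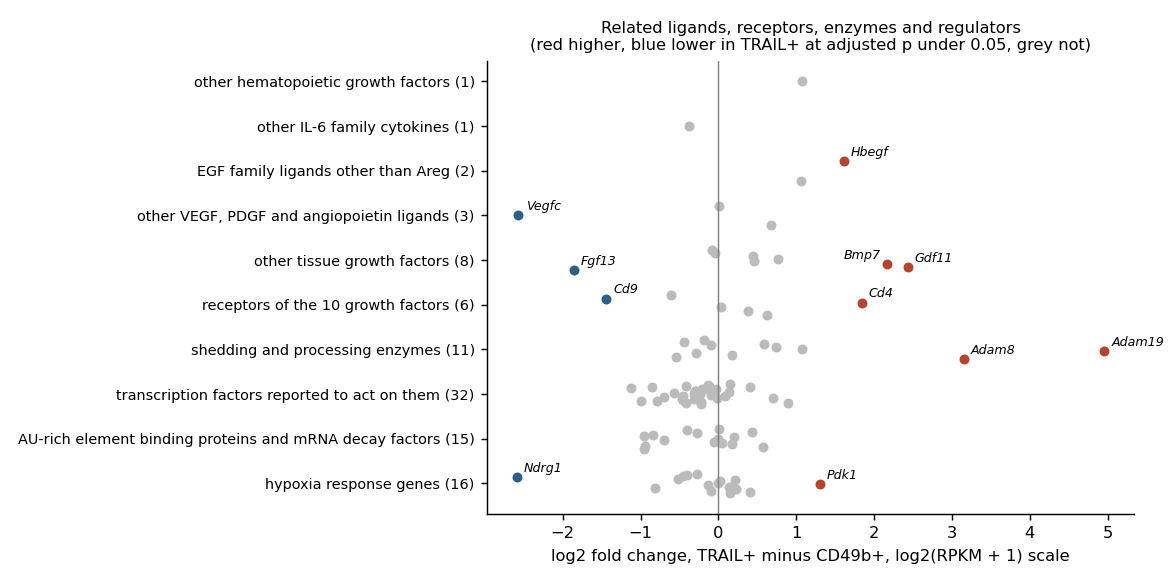
Log2 fold change, TRAIL+ minus CD49b+, of the tested genes of 10 lists of related genes (number tested in brackets), with called genes in red (higher) or blue (lower) and named. Of 95 genes tested over the lists, 7 were higher and 4 lower in TRAIL+ cells. Of all genes tested, 4.76% were higher and 3.86% lower. The lists were chosen with earlier results of these data known, so nothing is read from these counts.

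Of 23 receptors of the 10 factors, 7 had 0 reads in every library (Osmr, Tek, Tie1, Egfr, Erbb4, Flt4 and Pdgfra). The tested receptors were 6, with 1 higher and 1 lower, where 8.62% of all genes tested were called. Csf1r, the receptor of M-CSF, stood at 4.60 and 0.813 RPKM in TRAIL+ cells and at 2.73 and 0.130 RPKM in CD49b+ cells. It was higher in replicate 1 of each subset, as were Lyz2 and Alb, and their part in its level was not tested. Csf2ra, the GM-CSF receptor alpha chain, stood at 2.64 and 1.99 RPKM in TRAIL+ cells and at 2.28 and 0.956 RPKM in CD49b+ cells, and Il6st (gp130) had a log2 fold change of 0.03. Erbb3, a relative of the EGF receptor, stood at 0.910 and 0.326 RPKM in TRAIL+ cells and at 1.75 and 1.13 RPKM in CD49b+ cells. These 4 were not past the threshold (limma adjusted p = 0.365 to 0.976).

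The called receptors were both linked to Il16. Cd4, its receptor, stood at 4.11 and 3.57 RPKM in TRAIL+ cells, against 0.685 and 0.0819 RPKM in CD49b+ cells (log2 fold change 1.84 ± 0.30, SE, limma adjusted p = 0.0190). The call was lost without CD49b+ replicate 2 (limma adjusted p = 0.0648). Cd9, a tetraspanin reported to bind IL-16, fell to 61.8 and 93.1 RPKM in TRAIL+ cells, against 183 and 236 RPKM in CD49b+ cells (log2 fold change -1.44 ± 0.26, SE, limma adjusted p = 0.0273). That call was lost without CD49b+ replicate 1 or 2 (limma adjusted p = 0.0656 and 0.162). Cd4 is itself 1 of 8 T-cell markers, of which 5 were tested. Beside Cd4, Cd8a and Trat1 were higher, Cd28 was lower and Thy1 did not pass. No marker of the 8 was at 0 in both libraries of a subset, and Thy1 made up most of the summed level, which was 291 to 363 RPKM in TRAIL+ cells and 234 to 271 RPKM in CD49b+ cells. The part of T cells in the Cd4 difference was not tested.

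Enzymes that release or process growth factors included members with large differences. Of 20, 11 were tested, 2 rose, none fell by limma and 9 did not pass, where 8.62% of all genes tested were called. At an unadjusted p under 0.05 there were 4 genes, all of them higher, beside 2006 of all 10047 genes tested. Of the 11, voom called 2. Adam19, a membrane metalloprotease, stood at 44.4 and 33.7 RPKM in TRAIL+ cells, against 0.516 and 0.0793 RPKM in CD49b+ cells (4.96 ± 0.27, SE, on the log2 scale, limma adjusted p = 0.000797). Adam8, of the same family, stood at 17.1 and 13.6 RPKM in TRAIL+ cells, against 0.927 and 0.748 RPKM in CD49b+ cells (3.15 ± 0.22, SE, on the log2 scale, limma adjusted p = 0.00151). Adam17, which sheds Areg, Hbegf and Csf1 from the cell surface and was named after its value was seen, differed by -0.29 ± 0.16 on the log2 scale (SE, limma adjusted p = 0.433).

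The calls among known regulators of these genes depended on the libraries used. The transcription factors tested numbered 32, mainly of the NFAT, AP-1, NF-kB, STAT, Runx, Egr, Creb and hypoxia groups. Limma called 0 of them and voom 0. An unadjusted p under 0.05 was found in 6, of which 2 were higher and 4 lower, beside 2006 of all 10047 genes tested. Without TRAIL+ replicate 1 the fit called 1 higher and 9 lower, and without TRAIL+ replicate 2 it called 1 higher and 1 lower. Junb, the most abundant, stood at 1940 and 663 RPKM in TRAIL+ cells and at 1880 and 1320 RPKM in CD49b+ cells, a wide spread within each subset (limma adjusted p = 0.757). Of 15 proteins that bind AU-rich elements or act in mRNA decay, 0 were called by limma and 0 by voom. An unadjusted p under 0.05 was found in 4, of which 1 was higher and 3 lower, beside the same 2006 of all 10047. Without TRAIL+ replicate 1 the fit called 3 as lower, and without TRAIL+ replicate 2 it called 1 as higher. The most abundant, Zfp36, stood at 438 and 193 RPKM in TRAIL+ cells and at 665 and 475 RPKM in CD49b+ cells (log2 fold change -0.95 ± 0.42, SE, limma adjusted p = 0.308).

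Of 16 tested genes of the hypoxia response, to which Vegfa belongs, 1 was called lower and 1 higher, where 8.62% of all genes tested were called. Ndrg1 fell to 0.423 and 0.545 RPKM in TRAIL+ cells, against 7.72 and 8.14 RPKM in CD49b+ cells (log2 fold change -2.59 ± 0.21, SE, limma adjusted p = 0.00248). Pdk1, a kinase that limits pyruvate use, rose to 13.5 and 13.9 RPKM in TRAIL+ cells, against 4.08 and 6.03 RPKM in CD49b+ cells (limma adjusted p = 0.0272), a call that was lost without CD49b+ replicate 1 or 2 (limma adjusted p = 0.243 and 0.0707). The median log2 fold change of the 16 was -0.06, and that of Hif1a, named after its value was seen, was -0.12 ± 0.16.

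Markers of cells known to make these factors were examined beside them. Platelets and megakaryocytes carry Angpt1, Pdgfb and Vegfa, and the summed level of 7 platelet markers was 2.28 to 2.97 RPKM in TRAIL+ cells and 16.3 to 17.9 RPKM in CD49b+ cells. Nearly all of the CD49b+ sum was Gp1bb (16.9 and 16.1 RPKM), while Ppbp, Gp9 and Treml1 were at 0 and Pf4 had 1 read there. Of 13 endothelial and stellate cell markers, 6 were at 0 in TRAIL+ cells and 8 in CD49b+ cells, and Pecam1, which leukocytes also express, made up most of the sums of 43.4 to 53.5 RPKM in TRAIL+ cells and 41.4 to 44.0 RPKM in CD49b+ cells. Of 8 markers of type 2 and type 3 innate lymphoid cells, known sources of Areg and Csf2, 5 were at 0 in each subset and the sums were at most 0.216 RPKM in TRAIL+ cells and 0.260 RPKM in CD49b+ cells. Kupffer cell and monocyte markers summed to 50.1 to 117 RPKM in TRAIL+ cells and 608 to 655 RPKM in CD49b+ cells, where Ly6c2, which NK cells also express, gave 518 and 593 RPKM. Of these 10 markers, 1 (Marco) was at 0 in each subset and 1 of 6 tested was called, as lower. Clec4f (21 against 2 reads) and C1qa (41 against 6 reads) had more reads in TRAIL+ cells. So did Adgre1, Csf1r and Vsig4, while Cd14, Cd68, Lyz2 and Ly6c2 had more in CD49b+ cells. The part of Clec4f and C1qa in the Csf1 difference was not tested. The part of Gp1bb and Ly6c2 in the Angpt1, Vegfa, Pdgfb and Osm differences was not tested.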

How the data were processed

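Poly(A) RNA of sorted liver NK cells was sequenced in 4 libraries. The deposited values are RPKM, per the file headers, and the submitters' processing notes name TopHat 1.4.1 and mm9. How reads were counted, on which gene models and whether by strand is not given in the sources used here. Reads of overlapping genes therefore cannot be told apart. Groups came from the sample titles.

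File rows took RefSeq gene names (GRCm38.p6) by accession (20661), symbol (191) or synonym (65), and 108 kept their file name. Reads were recovered from the RPKM steps, which were whole within a relative tolerance of 1e-06 in 100% of 13681 rows above 0. Summed over rows they exceeded the total behind the RPKM in each library, as with 4394786 against 4071617 in TRAIL+ replicate 1. Each length was the multiple of the smallest possible length nearest the annotated one, so agreement in length is partly built in. Lengths were within 10% of the annotated one in 7 of the 10 growth factors, and not in Csf2, Osm and Vegfa, whose reads are less certain. Intervals cover counting error only.

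Genes with an RPKM of at least 1 in at least 2 libraries were fitted on log2(RPKM + 1), which understates changes of low genes, with limma 3.58.1 in R 4.3.3 (trended prior, Benjamini-Hochberg threshold 0.05, 2 residual degrees of freedom). The fit was also run on simulated libraries drawn independently, with changes placed only in genes with many reads. These lack the replicate pattern of the real libraries, so nothing is concluded from them here. An exact permutation test of 2 against 2 cannot go below 0.333 and was not used. The genes, lists and markers were chosen with earlier results of these data known. Named from each list are up to 4 called genes by size of change or, with none, the most abundant; the 3 nearest genes are named for called factors. Alternatives were another pseudocount, filter, scaling, voom, a replicate block and leaving out each library.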

Additional observations from a re-analysis of the deposited data

How the results depend on the processing

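Over all genes 478 were higher and 388 lower in TRAIL+ cells, and with 1 library left out the counts ran from 245 to 777 higher and from 198 to 763 lower, lowest without a CD49b+ library and highest without TRAIL+ replicate 1. Of the growth factors, 2 were called higher, with 1 to 3 when a library was left out, and 1 with no filter on low values and 1 with voom on recovered reads. In each of these settings with 1, Csf2 was the gene not called and Csf1 remained. The 3 called lower (Osm, Vegfa and Angpt1) were called in all 10 alternatives, and no log2 fold change of the 8 genes changed sign. Over the lists 7 were higher and 4 lower, with 4 to 11 higher and 3 to 17 lower when a library was left out. Cd4 was not called with a pseudocount of 0.1, and Cd9 and Pdk1 were not called without the filter. The labels do not say whether libraries with the same replicate number belong together. A replicate block gave 1049 genes higher and 833 lower, and 18 and 13 over the lists. Among these were 2 and 5 transcription factors and 1 and 3 proteins of AU-rich binding and mRNA decay. Flt3l and Pdgfb were past the threshold with the block. Replicate 1 minus replicate 2 correlated between the subsets over genes at 0.563. The cause of these changes was not tested, except that leaving out a library leaves 1 residual degree of freedom. At these depths Lif and Areg rested on 10 and 2 reads, too few to compare.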
